A study of Homo sapiens with 7 samples.

Results

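RNA of a human neuroblastoma line that carries 1 mutated copy of ARID1A was set against RNA of 2 lines in which both copies are mutated, gene by gene. The series holds 7 RNA sequencing libraries, and 3 of them enter this comparison, namely the library of the ARID1A+/- line and the repeat libraries of ARID1A-/- line 1 and ARID1A-/- line 2, all 3 made with the KAPA mRNA HyperPrep kit. A gene was considered where its RPKM (reads scaled to gene length and to the total count of the library) was at least 1 in any of the 3 libraries, which left 14116 of 28517 named entries. In 10361 of them the ARID1A+/- library lay above both null lines (4248) or below both (6113). Any 1 of 3 libraries lies outside the other 2 in many genes, so this count alone marks no difference. The median difference was -0.06 against each line, and 0.01 and 0.02 with another scaling of the libraries (TMM). Which side holds more genes may therefore depend on scaling.

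All lines derive from NGP, a neuroblastoma cell line with amplified MYCN, and all, the control included, were grown in RPMI medium with serum, penicillin-streptomycin and puromycin. The 2 null lines are labelled ARID1A-/- #1 and ARID1A-/- #2, the third mutant line ARID1A+/-, and the fourth group only control. The labels give neither the position of the mutations nor how each line was derived, and the ARID1A+/- genotype is represented by 1 line, so genotype and other differences between lines cannot be told apart. Each side of the comparison is 1 library, so there is no replicate check and no p-value. The KAPA library of the control is given beside the values as a level, and the SMARTer libraries of the null lines, made with another kit, as a second look at the same lines.

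ARID1A is a large subunit of the BAF form of the SWI/SNF complex, which uses ATP to move nucleosomes and open enhancers, and ARID1B is its paralog in the same position. Neuroblastoma arises from the sympathetic branch of the neural crest, and its cells are described along an axis from an adrenergic state, held by transcription factors of sympathetic neurons, to a mesenchymal state with matrix and cytoskeletal genes of neural crest mesenchyme. The genes below are therefore ordered as transcription factors, receptors and their ligands, enzymes and peptides of the sympathetic cell, axon guidance and matrix genes, and signalling pathways.

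ARID1A itself had an RPKM of 19.9 in the ARID1A+/- library, 17.2 in null line 1, 13.8 in null line 2 and 22.0 in the control. The ARID1A+/- level thus lay between the control and both null lines. Its ratio was 1.16 to line 1 (95% exact binomial interval of the counts 1.12 to 1.20) and 1.45 to line 2 (1.39 to 1.51). These intervals, like all below, cover counting error only, and an mRNA level does not show whether the protein was lost. None of the 30 considered subunits of the BAF and PBAF complexes was 2-fold apart from both null lines. The brain-specific actin-related subunit ACTL6B came closest below, with differences of -0.93 against line 1 and -0.87 against line 2, and BCL7A closest above, with 0.63 and 0.94, all on the log2(RPKM + 1) scale. ARID1B was at 8.93 in the ARID1A+/- library, 10.7 and 12.5 in null lines 1 and 2 and 7.24 in the control.

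The 3 libraries held 33032528 counts (ARID1A+/-), 31865626 (null line 1) and 28892053 (null line 2), and the control 24445301. The median gene differed by -0.06 on the log2 scale against each null line. A call of 2-fold below means a difference of at least 1 in log2(RPKM + 1) against both lines, and the added 1 understates the change of genes with low RPKM. The ARID1A+/- library was at least 2-fold higher than both null lines in 440 genes (3.12% of those considered) and at least 2-fold lower than both in 230 (1.63%). At 4-fold these counts were 96 and 33. Both differences share the ARID1A+/- library, so a deviation of that library alone would appear in both. Taken singly, 717 genes were 2-fold higher (5.08%) and 533 lower (3.78%) than null line 1, and 802 higher (5.68%) and 640 lower (4.53%) than null line 2.

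As yardsticks, 6.28% of genes were 2-fold apart between the null lines themselves, and 2.84% to 3.24% between the KAPA and SMARTer libraries of the same line. The ARID1A+/- library was 2-fold from null line 1 in 8.86% of genes, from null line 2 in 10.2% and from the control in 4.43%. Of the 440 higher genes, 421 lay further from both null lines than these lie from each other, as did 220 of the 230 lower genes. These genes were chosen for a difference of at least 1 from both lines. Over all considered genes the 95th percentile of the gap between the null lines was 1.10. So these counts follow largely from the choice and add no support. Over the same considered genes the KAPA control library was 2-fold higher than both null lines in 213 genes and lower in 88. The filter used the ARID1A+/- library and not the control. Genes expressed in the control alone are therefore missing, and the 213 is not on an equal footing with the 440. With the SMARTer libraries of the null lines, each line taken relative to the control of its own kit, 374 of the 440 and 156 of the 230 remained past 2-fold. Just inside the upper limit were TGFB2 at 1.001 and NCAM2 at 1.004 in the smaller of their 2 differences, and just outside it NOTCH1 at 0.996. Just inside the lower limit were RHPN2 and HSDL2, both at -1.001.

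**Figure D1:**
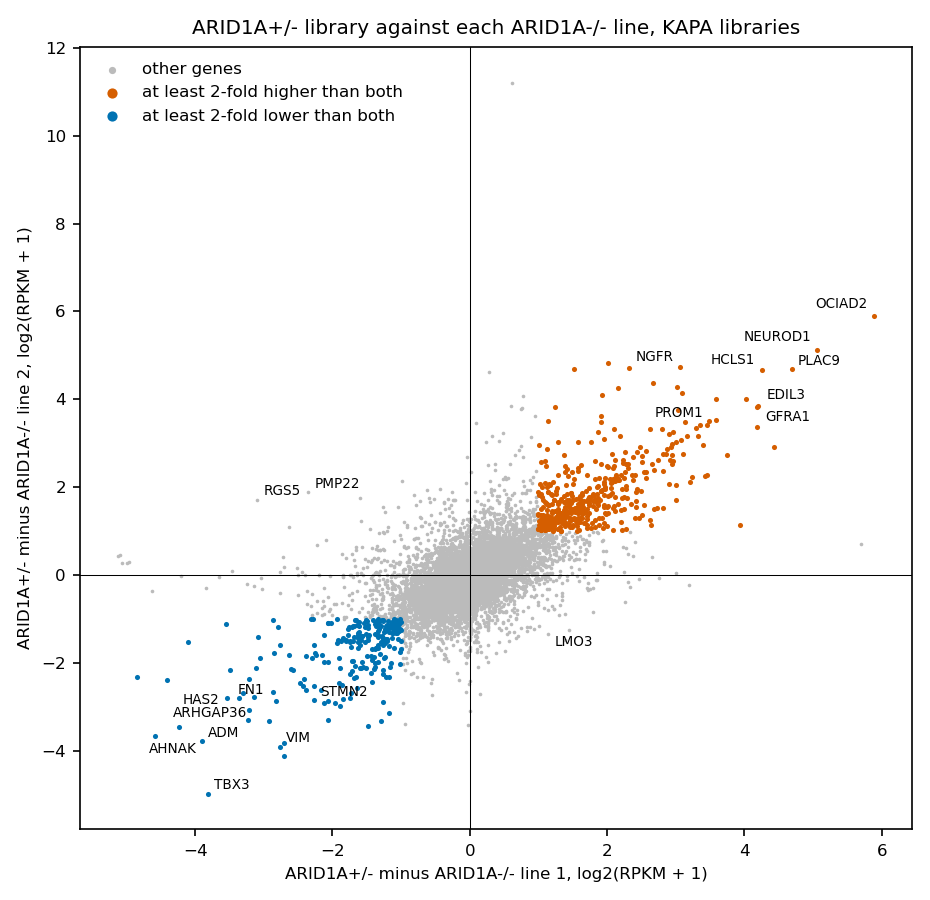
Difference of log2(RPKM + 1) between the ARID1A+/- library and null line 1 (horizontal axis) and null line 2 (vertical axis), 1 point per considered gene. The 440 genes at least 2-fold higher than both lines reach 5.89 on both axes at OCIAD2, the 230 lower ones reach -4.97 against line 2 at TBX3 and include AHNAK at -4.58 against line 1, and the point at the top is DQ572382, which had 0 counts in the KAPA library of line 2 alone.

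Many of the higher genes were low or silent in the null lines. Their median RPKM was 6.76 in the ARID1A+/- library (quartiles 3.23 and 13.9), 0.835 in null line 1, 0.795 in null line 2 and 3.03 in the control. In 207 of the 440 the RPKM was under 1 in both null lines, so these were considered only through the ARID1A+/- library. Low levels in the null lines are also part of how the 440 were chosen. The medians and this count therefore describe the selected genes and are partly built in by the filter and the rule. The lower genes mirrored this, with the same limit. Their median was 1.07 in the ARID1A+/- library (quartiles 0.230 and 3.40), 6.07 and 6.5 in the null lines and 3.80 in the control. Of the 230, 112 were under 1 in the ARID1A+/- library. Clone and other systematic names accounted for 57 of the higher and 32 of the lower entries, which are counted but not described singly. Since only bulk RNA was measured, fewer cells expressing a gene and less RNA per cell cannot be told apart.

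The promoters of 4 of the genes furthest from both null lines are printed here as examples of both directions, OCIAD2 and NEUROD1 being nearly silent in the null lines and ADM and FN1 high in them. Each is the 250 bases before the first transcription start listed for the gene, read 5′ to 3′ on the gene's strand from RefSeq's promoter table for GRCh38.p14, with CpG dinucleotides in capitals. OCIAD2 lies at chr4:48906829-48907078 on the minus strand, NEUROD1 at chr2:181680518-181680767 on the minus strand, ADM at chr11:10304823-10305072 on the plus strand and FN1 at chr2:215436069-215436318 on the minus strand.
OCIAD2: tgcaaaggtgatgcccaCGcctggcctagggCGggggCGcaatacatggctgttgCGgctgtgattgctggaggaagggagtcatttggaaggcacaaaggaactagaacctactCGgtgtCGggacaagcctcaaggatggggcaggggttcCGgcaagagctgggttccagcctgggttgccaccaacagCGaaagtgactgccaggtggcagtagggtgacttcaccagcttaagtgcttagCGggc
NEUROD1: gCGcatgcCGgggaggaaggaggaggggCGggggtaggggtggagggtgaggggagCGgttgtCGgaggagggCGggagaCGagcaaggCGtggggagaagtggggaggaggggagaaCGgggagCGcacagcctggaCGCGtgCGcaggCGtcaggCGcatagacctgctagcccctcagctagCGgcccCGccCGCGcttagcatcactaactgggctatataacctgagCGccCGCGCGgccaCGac
ADM: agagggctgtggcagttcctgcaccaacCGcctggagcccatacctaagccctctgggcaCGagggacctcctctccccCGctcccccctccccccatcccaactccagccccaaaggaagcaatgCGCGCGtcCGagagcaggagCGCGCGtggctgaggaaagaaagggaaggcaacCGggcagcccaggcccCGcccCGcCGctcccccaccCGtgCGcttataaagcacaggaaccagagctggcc
FN1: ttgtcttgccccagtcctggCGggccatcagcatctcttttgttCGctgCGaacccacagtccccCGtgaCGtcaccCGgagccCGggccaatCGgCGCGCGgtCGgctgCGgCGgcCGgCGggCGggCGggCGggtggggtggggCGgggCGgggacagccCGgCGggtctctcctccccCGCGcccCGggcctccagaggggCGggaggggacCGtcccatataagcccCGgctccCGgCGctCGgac

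The promoter of OCIAD2 held 9 CpG dinucleotides, that of NEUROD1 24, that of ADM 16 and that of FN1 32. The GC box GGGCGG, searched on both strands like every motif here and counted whether or not it overlapped another, was in all 4 and in 42.3% of the 27305 promoters of the table. The TATA box TATAAA was in ADM alone of the 4 (11.1% of all promoters), and the CCAAT box CCAAT and the cyclic AMP element TGACGTCA in FN1 alone (33.0% and 1.77%). The AP-1 motif TGANTCA and the E-box CACGTG were in none of the 4, against 6.60% and 6.49% of all promoters. Such matches describe letters in these windows and no binding or methylation was measured. A promoter was in the table for 67.3% of the 440 higher genes, 70.9% of the 230 lower genes and 70.6% of the genes considered. Of these promoters, 60.8%, 73.0% and 67.0% held the GC box, and 15.5%, 15.3% and 8.17% had 5 or fewer CpG dinucleotides. These shares cover only the genes with a promoter in the table, and their differences were not tested.

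OCIAD2, a mitochondrial and endosomal membrane protein, had an RPKM of 58.4 in the ARID1A+/- library, 0 in both null lines and 30.8 in the control. Its 1475 counts made it at least 474-fold higher than line 1 and at least 430-fold higher than line 2, against a floor of 3 counts per library. It was thus detected in the ARID1A+/- and control libraries and had no count in either null line, whose SMARTer libraries also stood at 0. PLAC9, a small secreted protein, was at 24.8 in the ARID1A+/- library, 0 in both null lines and 4.01 in the control, at least 178-fold and 161-fold higher than lines 1 and 2. HORMAD1, a meiotic chromosome protein that tumours can re-express, was at 7.38 against 0 in both null lines and 4.50 in the control. For HORMAD1 the bounds were at least 149-fold and 135-fold. These 3 genes had no count at all in the KAPA libraries of the null lines.

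HCLS1, an actin regulator best known in blood cells, followed another order. Its RPKM was 24.5 in the ARID1A+/- library, 0.346 in null line 1, 0 in null line 2 and 0.186 in the control. The ARID1A+/- library was therefore the one library with a high level, 71.0 times line 1 (49.3 to 106) and at least 622-fold above line 2. FAM162B, a predicted mitochondrial membrane protein, was at 15.7 against 0.0303, 0.0334 and 23.2 in line 1, line 2 and the control. EDIL3, a secreted ligand of integrins, was at 17.9 against 0.0245, 0.297 and 13.7. For both genes the ARID1A+/- and control libraries were high and both null lines low, and EDIL3 was 729 times line 1 (249 to 3537, on 3 counts there) and 60.1 times line 2 (42.7 to 87.5).

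Other genes in the upper group had roles in the cell membrane. PROM1, which encodes the stem cell surface protein CD133, had an RPKM of 14.7, 0.402, 0.376 and 4.91 in the ARID1A+/- line, line 1, line 2 and the control, 36.6 and 39.1 times the null lines. ABCB1, the multidrug efflux pump P-glycoprotein, stood at 10.4, 0.0399, 0.0661 and 21.7, that is 260 and 157 times the null lines. The smaller of its 2 log2 differences was 3.42 with the KAPA libraries and 1.39 with the SMARTer ones, the control being at 4.49 in SMARTer. SEZ6L, a neuronal membrane protein, was at 16.0, 0.709, 0.895 and 9.33, and ITPKB, an inositol trisphosphate kinase, at 17.5, 1.18, 0.0453 and 7.44. In all 4 of these genes the null lines were lowest.

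**Figure D2:**
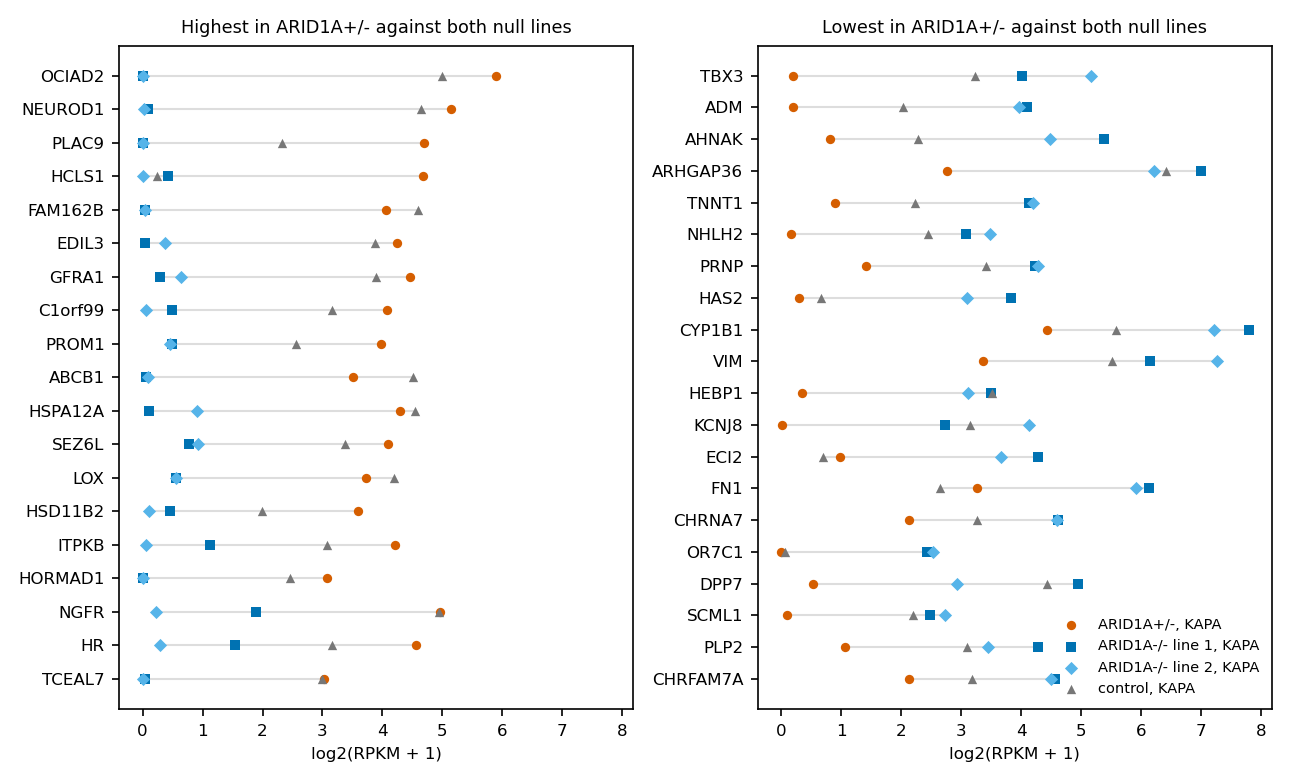
RPKM, as log2(RPKM + 1), of the 19 reported highest and 20 lowest genes in the ARID1A+/- library (circles), null line 1 (squares), null line 2 (diamonds) and the control (triangles), KAPA libraries, 1 library per point. HCLS1 is low in the control as in the null lines, whereas FN1, HAS2 and ECI2 are low in the control and the ARID1A+/- library and high in both null lines.

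TBX3, a T-box repressor in the adrenergic list, was the lowest gene against both null lines. Its RPKM was 0.144 in the ARID1A+/- library, 15.2 in line 1, 34.8 in line 2 and 8.38 in the control. The null lines were 106 times (72.4 to 161) and 242 times (166 to 368) higher than the ARID1A+/- library, which had 27 counts. Here the control was nearer to the null lines and the ARID1A+/- library was the single low one. ADM, the vasodilator peptide adrenomedullin, was at 0.146, 16.1, 14.6 and 3.11 in the same order, so the null lines were 110 times (53.3 to 275) and 100 times (48.2 to 250) higher. AHNAK, a giant scaffold protein under the plasma membrane, was at 0.757, 40.9, 21.4 and 3.85. ADM and AHNAK were lowest in the ARID1A+/- library, intermediate in the control and highest in the null lines.

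ARHGAP36, which antagonises protein kinase A, was at an RPKM of 5.76 in the ARID1A+/- library, 127, 73.3 and 84.4 in line 1, line 2 and the control. NHLH2, a neuronal bHLH transcription factor, was at 0.124, 7.51, 10.2 and 4.46. KCNJ8, a potassium channel subunit, had 1 count in the ARID1A+/- library and RPKM values of 5.61, 16.6 and 7.84 in the others, so that line 1 was 443 times higher with an interval of 79.0 to 17524. In these 3 genes the ARID1A+/- library was again alone at the low end. The prion protein gene PRNP had an RPKM of 1.68, 17.9, 18.5 and 9.62, and DPP7, a lysosomal peptidase, 0.449, 29.8, 6.59 and 20.6, with 25 counts in the ARID1A+/- library. CYP1B1, a cytochrome P450 that oxidises steroids and aromatic hydrocarbons, was at 20.6, 221, 148 and 46.8.

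A few lower genes were high in the null lines only. ECI2, an enzyme of fatty acid oxidation, had an RPKM of 0.969 in the ARID1A+/- library, 18.4 and 11.7 in the null lines and 0.618 in the control. OR7C1, an olfactory receptor gene, had 0 counts in the ARID1A+/- library, 4.40 and 4.78 RPKM in the null lines and 0.0425 in the control, at least 46.6-fold and 50.7-fold lower than lines 1 and 2. In both genes the control and the ARID1A+/- library were low together. CHRNA7, a nicotinic acetylcholine receptor subunit, was at 3.39, 23.4, 23.2 and 8.63 and its partial copy CHRFAM7A at 3.40, 22.6, 21.6 and 8.08. Because the 2 genes share near-identical exons, how their reads were divided is uncertain.

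Gene lists were then counted, 48 lists with 1100 considered genes, and each count is to be read against 3.12% of all genes higher and 1.63% lower. Of the 46 lists with a considered gene, 13 had no gene past 2-fold in either direction. Higher list genes with an RPKM under 1 in both null lines were considered only through the ARID1A+/- library. Lower ones under 1 in that library were considered only through the null lines. The list shares are therefore partly built in by the filter, as the shares over all genes are. The 77 cytosolic ribosomal protein genes had none, yet 75 lay above both null lines by small amounts, with medians of 0.23 and 0.44. Among all 14116 considered genes 4248 lay above both, and the medians were -0.06 against each line. The summed RPKM of the ribosomal list was 46221 in the ARID1A+/- library, 38251 and 35056 in the null lines and 47549 in the control. The 71 mitochondrial ribosomal, 74 nuclear oxidative phosphorylation, 39 cell cycle, 27 Polycomb and 24 histone genes also had no gene past 2-fold. Such a list need not be alike in all lines, since 23 of the 24 histone genes lay below line 1 and 19 above line 2, with medians of -0.65 and 0.27.

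**Figure D3:**
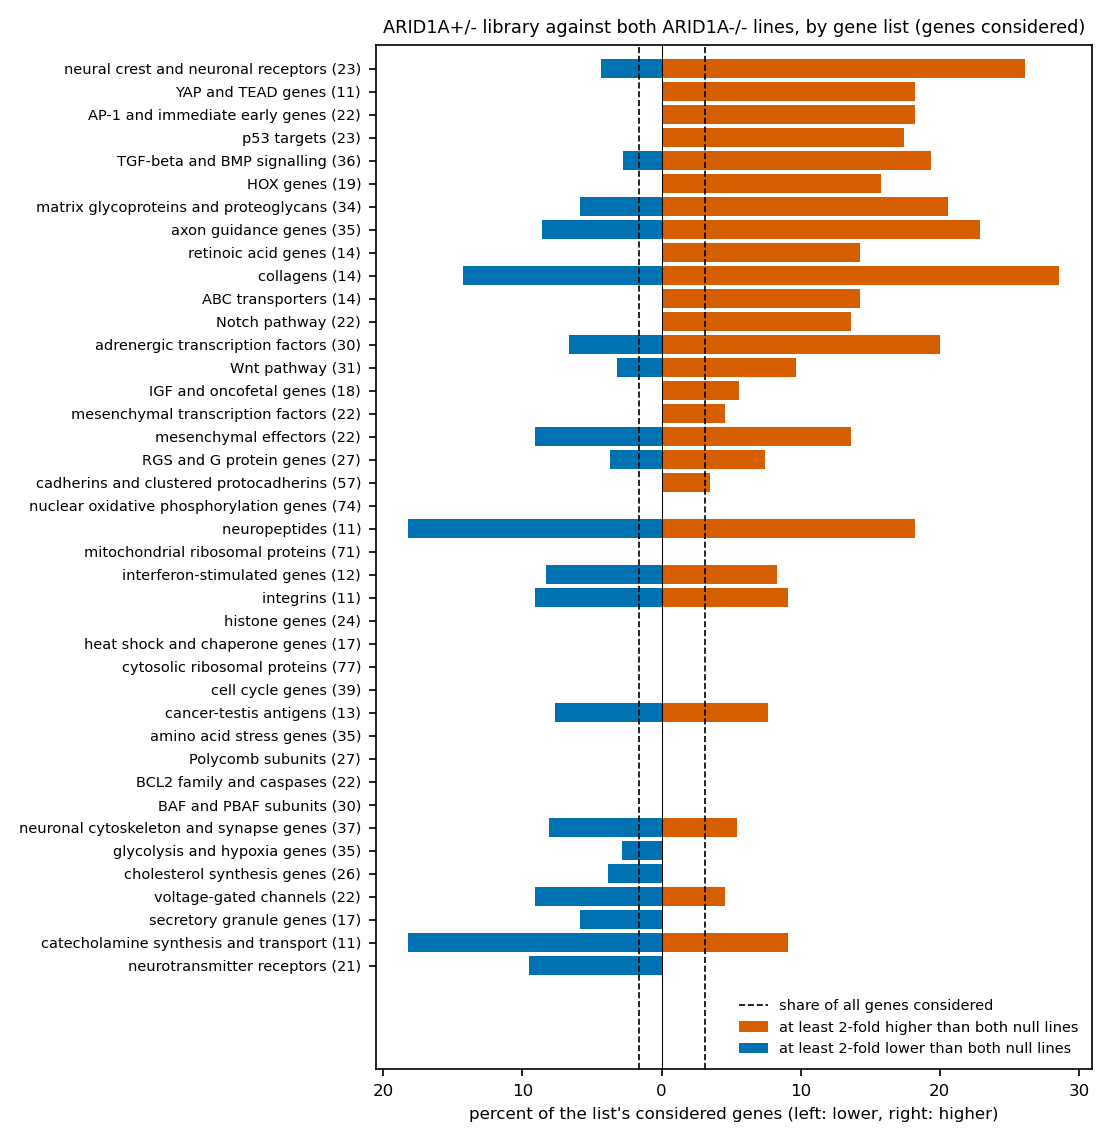
Share of each list's considered genes (number in brackets) that were at least 2-fold higher (right) or lower (left) than both null lines, for lists of at least 10 such genes, with dashed lines at the shares over all genes (3.12% and 1.63%). Receptor, axon guidance, matrix glycoprotein and TGF-beta lists lie past both dashed lines. Many others, such as the adrenergic factor, HOX and p53 lists, also lie past the line for higher genes. BAF subunit, Polycomb, ribosomal, cell cycle and oxidative phosphorylation lists are at 0.

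Among the 30 adrenergic transcription factors, 6 (20%) were 2-fold higher and 2 (6.67%) lower, with list medians of 0.16 and 0.36. NEUROD1, a neuronal bHLH factor, had an RPKM of 34.5 in the ARID1A+/- library, 0.0627 in line 1, 0.0115 in line 2 and 24.1 in the control. It was 550 times line 1 (252 to 1499, on 6 counts) and 2990 times line 2 (536 to 118150, on 1 count). POU4F1, a POU factor of sensory neurons, was at 96.3, 21.7, 8.74 and 7.38, and the ARID1A+/- level stood above the control as well. DACH1, a corepressor, was at 26.0, 8.70, 8.71 and 14. Lower were TBX3, given above, and KLF7, a Krüppel-like factor of growing neurons, at 2.90, 12.0, 11.1 and 5.96. So the list was mixed, with NEUROD1, POU4F1 and DACH1 highest and TBX3 and KLF7 lowest in the ARID1A+/- library among the 4. Several core factors lay within 2-fold of both lines, HAND2 and PHOX2A among them.

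Of the 22 considered mesenchymal transcription factors 1 was 2-fold higher, which is 4.55%, and 0 lower. It was TBX18, a T-box factor of mesenchyme, at an RPKM of 6.24 in the ARID1A+/- library, 0.724 and 0.666 in the null lines and 2.37 in the control. The 22 mesenchymal effector genes split, with 3 higher (13.6%) and 2 lower (9.09%). Higher were the collagen cross-linking enzyme LOX at 12.2, 0.469, 0.479 and 17.3, caveolin CAV1 at 2.72, 0.105, 0.0999 and 0.809 and annexin ANXA2 at 2.48, 0.518, 0.271 and 1.28. The null lines were lowest in all 3. TBX18 and these 3 genes had an RPKM under 1 in both null lines. They were thus considered only through the ARID1A+/- library, and the shares of higher genes here are partly built in. Lower was the intermediate filament gene VIM at 9.34, 69.7, 153 and 44.5, where the ARID1A+/- library was below the control too and line 1 was 7.46 times it (6.87 to 8.10). Fibronectin FN1 was at 8.6, 68.9, 59.4 and 5.27, 8.02 times higher in line 1 (7.75 to 8.30) and 6.91 times in line 2 (6.67 to 7.15), with the control at the level of the ARID1A+/- library.

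The receptor list held 6 higher genes (26.1%) and 1 lower (4.35%) of 23, with medians of 0.65 and 0.71. GFRA1, the co-receptor through which GDNF reaches RET, had an RPKM of 21.1 in the ARID1A+/- library, 0.219 in line 1, 0.552 in line 2 and 13.9 in the control, 96.5 times line 1 (75.9 to 125) and 38.3 times line 2 (32.6 to 45.3). The low-affinity neurotrophin receptor NGFR was at 30.0, 2.72, 0.162 and 29.8, 11 times line 1 and 185 times line 2. Both receptors were high in the ARID1A+/- and control libraries and low in both null lines. The fibroblast growth factor receptor FGFR1 was at 25.6, 8.87, 7.36 and 18.4, and the PDGF receptor PDGFRB at 14, 2.73, 1.75 and 3.58. The lower gene was ALK, the receptor kinase mutated in some neuroblastomas, at 10.1, 30.8, 23.9 and 12.1, where the ARID1A+/- library was near the control and below both null lines.

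**Figure D4:**
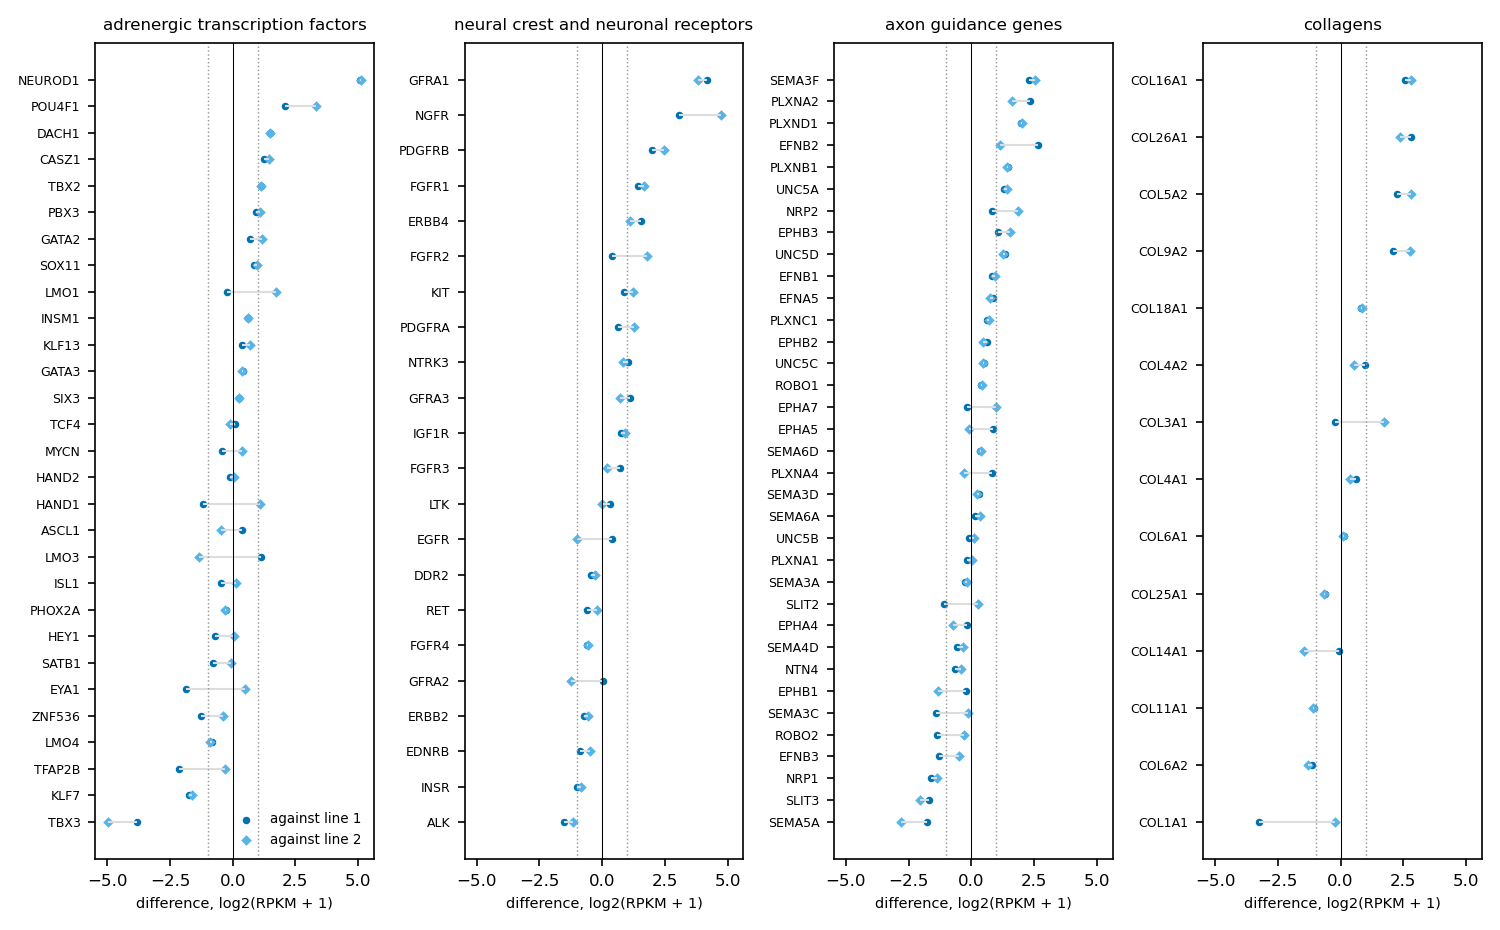
Difference of log2(RPKM + 1) of the ARID1A+/- library against null line 1 (circles) and null line 2 (diamonds) for genes of 4 lists, with dotted lines at 2-fold. GFRA1 and NGFR lie past 3 against both lines, TBX3 lies below -3 against both, and genes such as COL1A1 and TFAP2B are apart from 1 line only.

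Genes of catecholamine synthesis and transport gave 1 higher and 2 lower of 11 (9.09% and 18.2%). GCH1, which makes the cofactor of tyrosine hydroxylase, had an RPKM of 8.43, 1.23, 1.07 and 4.47 in the ARID1A+/- line, line 1, line 2 and the control. Monoamine oxidase MAOA was at 1.25, 8.41, 21.1 and 3.21 and the noradrenaline transporter SLC6A2 at 4.97, 39.7, 17.0 and 3.66. Over the whole list 7 of the 11 genes lay below both null lines and 2 above both, with medians of -0.78 and -0.11. Among all 14116 considered genes 6113 lay below both and 4248 above both, so the 7 of this short list mark little by themselves. The synthesis enzyme DDC was among the 7, at 16.8, 38.4, 19.1 and 11.9. Of 11 neuropeptide genes 2 were higher and 2 lower (18.2% each). Neuropeptide Y, NPY, was at 31.5, 0.504, 3.34 and 7.09, above the control as well. Corticotropin-releasing hormone, CRH, had 0 counts in the ARID1A+/- library and RPKM values of 4.99, 3.43 and 0.228 in the others. NMB, neuromedin B, was at 4.61, 1.40, 0.706 and 3.77, and its smaller difference was 0.77 with the SMARTer libraries, under 2-fold.

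Neuronal cytoskeleton and synapse genes gave 2 higher (5.41%) and 3 lower (8.11%) of 37. DPYSL3, a collapsin response mediator of growth cones, had an RPKM of 64.2, 13.2, 12.4 and 34.4 in the ARID1A+/- line, line 1, line 2 and the control. The tubulin regulator STMN2 was at 19.5, 97.9, 147 and 95.3, and the synaptic vesicle GTPase RAB3A at 5.14, 18.8, 29.9 and 22.9. CNTN1, a neuronal adhesion protein, was at 14.4, 46.5, 37.1 and 24.9. The 3 lower genes were lowest in the ARID1A+/- library, the control included. Of 22 voltage-gated channel genes 1 was higher, CACNA2D2 at 7.43, 1.74, 1.56 and 4.72, and 2 were lower, the sodium channel subunits SCN9A at 2.53, 7.27, 7.46 and 1.92 and SCN3B at 0.374, 2.09, 3.24 and 2.55. With the SMARTer libraries SCN9A was at -0.61, under 2-fold.

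Axon guidance genes gave 8 higher (22.9%) and 3 lower (8.57%) of 35, with medians of 0.35 and 0.34. The secreted repellent SEMA3F had an RPKM of 6.60 in the ARID1A+/- library, 0.530 in line 1, 0.311 in line 2 and 4.32 in the control. Semaphorin receptors stood on the same side, with PLXND1 at 15.6, 3.25, 3.15 and 13.6, PLXNA2 at 7.43, 0.651, 1.73 and 1.98, and PLXNB1 at 10.7, 3.25, 3.35 and 5.51. These plexins were highest in the ARID1A+/- library in every case. Lower were the membrane semaphorin SEMA5A at 0.146, 2.85, 6.94 and 1.26, and SLIT3, a ligand of ROBO receptors, at 1.80, 7.89, 10.7 and 4.32. For both, the ARID1A+/- library was lowest.

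The collagen list held 4 higher (28.6%) and 2 lower (14.3%) of 14. COL5A2, of a fibril-forming collagen, had an RPKM of 11 in the ARID1A+/- library, 1.51 and 0.719 in the null lines and 0.803 in the control, so the ARID1A+/- library alone was high. COL16A1 was at 6.15, 0.215, 0.0116 and 5.12, COL26A1 at 6.58, 0.0730, 0.471 and 1.64, and COL9A2 at 14.7, 2.75, 1.34 and 2.98. All 4 kept a difference of more than 2-fold with the SMARTer libraries. The lower ones were COL6A2 at 4.79, 11.7, 13.4 and 7.91 and COL11A1 at 2.14, 5.6, 5.83 and 1.79. With the SMARTer libraries their smaller differences were -0.46 and -0.15, both under 2-fold.

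Other matrix genes gave 7 higher (20.6%) and 2 lower (5.88%) of 34. The basement membrane genes NID1, at an RPKM of 12.0, 0.619, 2.16 and 9.81 in the ARID1A+/- line, line 1, line 2 and the control, and LAMA5, at 3.52, 0.385, 0.415 and 3.02, were both lowest in the null lines. The heparan sulfate proteoglycan genes AGRN, at 6.49, 1.5, 1.80 and 2.67, and GPC1, at 27.1, 7.93, 9.32 and 16.7, were higher too. Hyaluronan synthase HAS2 was lower, at 0.231, 13.2, 7.57 and 0.575, with line 1 at 57.2 times (38.6 to 88.7) and line 2 at 32.7 times (22.0 to 50.9) the ARID1A+/- level. The proteoglycan gene NCAN was at 0.136, 3.21, 3.9 and 3.07. HAS2 was low in the control as in the ARID1A+/- library, whereas NCAN was low in the ARID1A+/- library alone. The integrin subunit ITGA8 was at 0.882, 7.50, 10.6 and 0.577 and ITGA9 at 1.88, 0.356, 0.409 and 1.04, the one lower and the other higher among 11 integrin genes.

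TGF-beta and BMP signalling gave 7 higher (19.4%) and 1 lower (2.78%) of 36, with medians of 0.26 and 0.10. Among ligand subunits, INHBE had an RPKM of 4.17, 0.155, 0.696 and 2.47 in the ARID1A+/- line, line 1, line 2 and the control, and INHBB 1.83, 0, 0 and 2.36. The stress-induced ligand GDF15 was at 1.29, 0.0785, 0.0865 and 0.170, with a smaller difference of 0.71 in the SMARTer comparison. BMP7, the lower gene, was at 0.736, 4.74, 10.1 and 12.1, so that control and null lines were high together. The secreted modulator FSTL1 was at 8.78, 2.90, 2.66 and 4.30. SMAD7, an inhibitor of the pathway that TGF-beta itself induces, was at 12.7, 4.29, 3.86 and 6.0.

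Notch pathway genes gave 3 higher and 0 lower of 22 (13.6% and 0%). The ligand JAG2 had an RPKM of 10.4, 0.462, 0.883 and 2.07 in the ARID1A+/- line, line 1, line 2 and the control, and the transcription factor HES6, which acts in neuronal differentiation, 75.8, 17.9, 24.8 and 65.7. HES7 was at 1.31, 0.0187, 0.0412 and 2.80, but its smaller difference was 0.08 with the SMARTer libraries. Wnt pathway genes gave 3 higher and 1 lower of 31 (9.68% and 3.23%). These were the Wnt-responsive transcription factor LEF1 at 15.4, 1.05, 4.05 and 11.2, the ligand WNT5B at 4.65, 0.453, 0.604 and 1.96, the receptor FZD7 at 3.25, 0.717, 0.791 and 1.48, and on the lower side the Wnt agonist RSPO4 at 0.0112, 4.0, 2.72 and 2.01. Of 11 YAP and TEAD genes, the DNA-binding partners TEAD2, at 69.9, 29, 4.01 and 9.71, and TEAD4, at 7.02, 1.76, 2.39 and 5.02, were higher. In each of these higher genes but HES7 the ARID1A+/- library was the highest of the 4.

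Immediate early genes and p53 targets gave 4 higher and 0 lower each, of 22 (18.2%) and 23 (17.4%). KLF4, a Krüppel-like factor, had an RPKM of 17.0, 2.38, 6.34 and 3.98 in the ARID1A+/- line, line 1, line 2 and the control. JUNB, an AP-1 subunit, was at 35.0, 13.8, 10.6 and 28.2, and IER5 at 39.6, 14, 7.48 and 26.5. The antiproliferative gene BTG2, on both lists, was at 18.1, 7.51, 3.64 and 11.5. The cyclin-dependent kinase inhibitor CDKN1A was at 41.5, 5.47, 13.8 and 31.7 and GADD45A at 30.0, 13.5, 11.5 and 18.5. With the SMARTer libraries of the null lines the smaller differences of CDKN1A and GADD45A were 0.47 and 0.34, so of the p53 list BTG2 alone, at 1.06, remained past 2-fold.

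The HOX list gave 3 higher and 0 lower of 19 (15.8%), and its medians had opposite signs, -0.54 against line 1 and 0.58 against line 2. The 3 were neighbours in the HOXA cluster, whose genes set position along the body axis. HOXA9 had an RPKM of 2.31 in the ARID1A+/- library, 0.137 and 0 in the null lines and 0.776 in the control. HOXA10 was at 9.29, 0.482, 0.0326 and 3.58 and HOXA11 at 9.66, 0.425, 0.156 and 4.77. HOXA13, further along the cluster, was above both null lines at 3.05, 0.300, 1.28 and 1.19 but by less than 2-fold on this scale against line 2 (0.83). At the other end HOXA5 and HOXA7 were below line 1, by -1.40 and -0.97, and at 0.40 and -0.02 against line 2. Antisense genes overlap this cluster and the labels do not say whether reads were counted by strand, so shared reads cannot be told apart, which holds also for VIM and its antisense neighbour.

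Other lists were smaller or had fewer such genes. Of 14 retinoic acid genes 2 were higher (14.3%) and 0 lower. The retinol transporter STRA6, one of them, had an RPKM of 6.24, 2.01, 0.819 and 1.48 in the ARID1A+/- line, line 1, line 2 and the control, higher than in both null lines. IGFBP2, which binds insulin-like growth factors, was at 69.4, 25.6, 24.2 and 42.7. The antigen presentation gene B2M was lower at 56.4, 119, 126 and 66.8, and the ARID1A+/- level was close to that of the control. PMVK, a kinase of cholesterol synthesis, was lower at 4.99, 24.1, 22.4 and 11.9. The G protein gamma subunit GNG11 was at 2.60 against 0 in both null lines and 0.0858 in the control, and RGS20, a regulator of G protein signalling, at 3.51, 0.161, 0.0380 and 1.33. These were 2 higher of 27 RGS and G protein genes (7.41%), and GNG8 was the 1 lower (3.70%), at 0.711, 3.54, 2.44 and 2.11. The smaller difference of GNG8 was -0.69 with the SMARTer libraries, under 2-fold.

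Of 12 interferon-stimulated genes 1 was higher and 1 lower (8.33% each), IFITM2 at an RPKM of 2.94, 0.731, 0.284 and 0.392 and IFI6 at 3.48, 12.7, 8.33 and 5.9 in the ARID1A+/- line, line 1, line 2 and the control. The lipid transporter ABCA12 was at 17.9, 3.85, 1.21 and 14.9, which with ABCB1 made 2 higher of 14 ABC transporters (14.3%). Of 57 cadherins and clustered protocadherins 2 were higher (3.51%, near the 3.12% of all genes), CDH4 at 1.87, 0.118, 0.159 and 1.96 and CDH7 at 4.31, 0.188, 0.174 and 1.13. CDH4 was high in the control as in the ARID1A+/- library, whereas CDH7 was highest in the ARID1A+/- library. PCSK1N, an inhibitor of prohormone processing, was the 1 lower gene of 17 secretory granule genes at 5.21, 13.7, 13.8 and 5.96.

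Markers of endothelial, erythroid, immune and epithelial cells were low, whereas fibroblast markers were measured in all 4 KAPA libraries. Schwann cell and neural crest markers ranged from a summed RPKM of 3.01 in null line 2 to 35.8 in the control. None of 8 endothelial and 7 erythroid markers reached an RPKM of 1 in the 3 libraries compared, and their summed RPKM was at most 1.21 and 0.183 in any of the 4 KAPA libraries. Of 8 immune markers 2 were considered and of 11 epithelial markers 1, none of them past 2-fold. The immune list summed to at most 4.16 and the epithelial list to at most 2.88 in any of the 4 KAPA libraries. Of the 8 considered fibroblast markers, PDGFRB was higher, and the summed RPKM of the list was 138 in the ARID1A+/- library, 271 and 78.0 in the null lines and 125 in the control. Of 2 considered Schwann cell and neural crest markers, NGFR was higher and the other lay below both null lines, with a smaller difference of -0.81. The list summed to 32.1, 8.4 and 3.01 in the ARID1A+/- line, line 1 and line 2 and 35.8 in the control. NGFR alone, at 30.0, 2.72, 0.162 and 29.8, made up most of the sum in the ARID1A+/- and control libraries. The sum therefore does not describe the rest of that list. In the list of muscle and other lineages the astrocyte water channel AQP4 alone was considered, at 0.145, 6.74, 0.0862 and 0.588 in the same order, so that line 1 alone was high. The part of these cell type markers in the other results was not tested. HCLS1, given above, is known from blood cells. Whether such cells contributed to its level was not tested, and only 2 of the 8 immune markers were considered.

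The differences were also laid out along the genome, using the gene order of the RefSeq table for 12641 of the considered genes (89.6%), in windows of 31 neighbouring genes. In 50 of the 11951 windows the median difference was at least 0.5 against both null lines, and all 50 were on chromosome 18. No window reached -0.5 against both. The highest window elsewhere, from SDF2 to NSRP1 on chromosome 17, had medians of 0.41 and 0.41, and the lowest, from BEX4 to DCX on the X chromosome, -0.41 and -0.46. Against a single line, windows went further. On chromosome 1 they reached 0.53 against line 2 and 0.24 against line 1, and on chromosomes 4 and 8 they went down to -0.76 and -0.88 against line 2 but to -0.33 on both against line 1. On chromosome 6 they went down to -0.88 against line 2 and -0.60 against line 1, in windows that did not reach -0.5 against both.

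The chromosome 18 windows together spanned 91 genes from ELP2 to PARD6G, the last considered gene of the chromosome. Of these, 83 (91.2%) were higher than both null lines, against 30.2% of all genes with a position, and 1 was lower than both. Their median differences were 0.63 against line 1 (quartiles 0.32 and 0.84) and 0.66 against line 2 (0.39 and 0.99). The other 95 genes of the chromosome had medians of -0.20 and -0.10. In the same 91 genes the ARID1A+/- library exceeded the control by a median of 0.59, the control differed from lines 1 and 2 by 0.01 and 0.06, and the null lines differed from each other by 0.06. So in this stretch the ARID1A+/- library stood apart and the other 3 lay close together. The stretch was found from these values, so the figures describe it and test nothing, and DNA copy number was not measured.

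Of the 91 genes 12 were past 2-fold against both lines, and SMAD7 of the TGF-beta list is one of them. Those with the largest smaller difference were the cadherin CDH7, with differences of 2.16 and 2.18, DOK6, an adaptor of RET signalling, with 2.44 and 1.95, CELF4, a neuronal RNA-binding protein, with 1.96 and 1.56, and ZBTB7C, a zinc finger protein, with 1.48 and 1.65. Also past 2-fold was the spliceosome gene TXNL4A at 1.16 and 1.29. Higher by less were, for example, the ATP synthase subunit ATP5A1 at 0.61 and 0.83, the ribosomal protein gene RPL17 at 0.84 and 1.02 and the proteasome-linked gene TXNL1 at 0.83 and 0.89. RPL17 shares exons with a readthrough entry of the tables, so its reads may be divided. SMAD2 and SMAD4, which carry TGF-beta signals to the nucleus, were at 0.28 and 0.29 and at 0.76 and 0.48. Those not higher than both included RAB27B at -0.74 and -0.34 and TCF4 at 0.08 and -0.11.

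**Figure D5:**
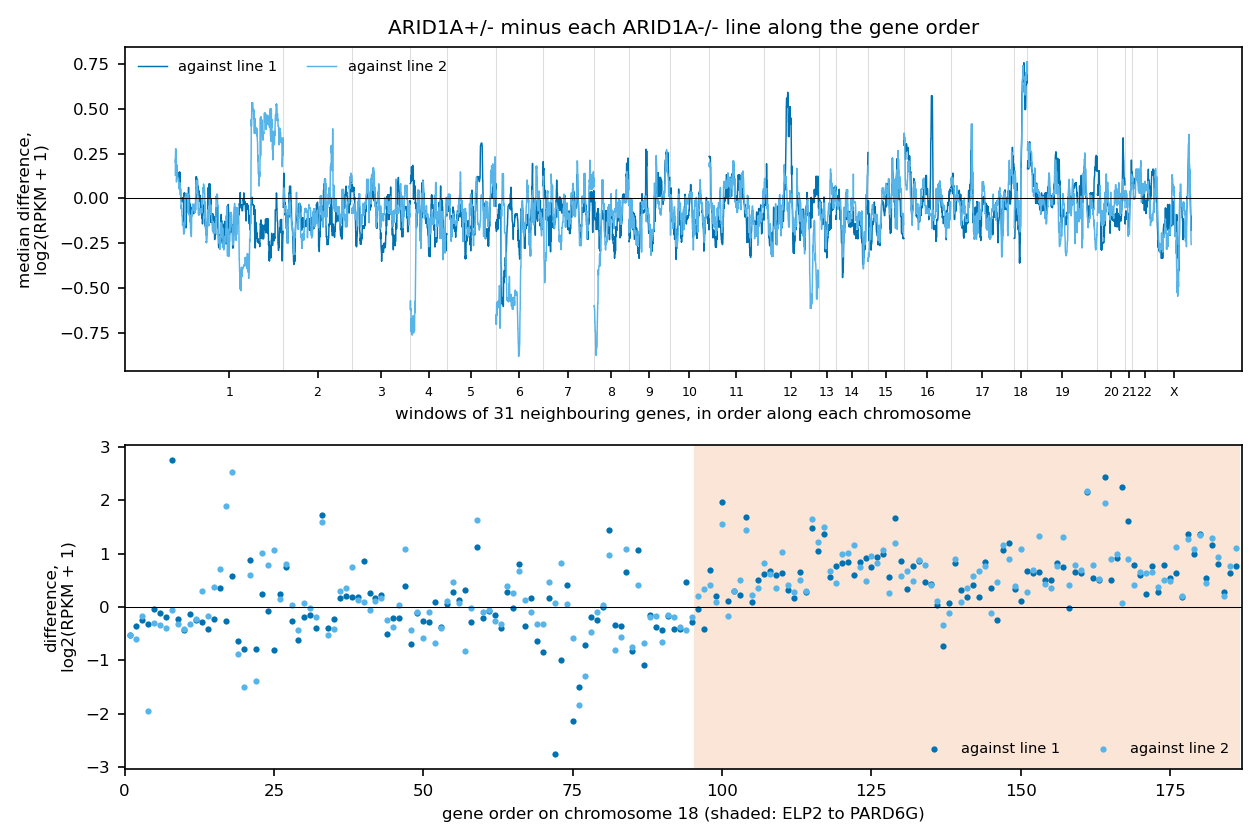
Upper panel, median difference of log2(RPKM + 1) of the ARID1A+/- library against null line 1 and null line 2 in windows of 31 neighbouring genes along each chromosome, and lower panel, the differences of single genes on chromosome 18 in gene order, with the 91 genes from ELP2 to PARD6G shaded. Both lines of the upper panel reach 0.76 on chromosome 18, and 83 of the 91 shaded genes lie above 0 against both lines.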

How the data were processed

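RNA of 4 NGP lines was sequenced in 7 libraries as 75 bp single-end reads on a NextSeq 500, and the labels name polyadenylated RNA while their protocols mention ribosomal RNA depletion with the SMARTer or KAPA kit before NEBNext Ultra, so how RNA was selected is uncertain. Per the submitters' processing notes, the aligner was HISAT2 2.1.0 and the build hg19. Not given in the sources used here are the counting program, the annotation and whether counting used strand. The authors deposited, for each library, whole-number counts and RPKM per named entry. The deposited RPKM equalled the count divided by length and total count to within 0.000501%, so it is scaled by total counts alone. Totals in all 7 libraries ran from 24445301 to 43644361. Whether repeat libraries came from separate cultures is not in the labels.

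From the deposited RPKM, log2(RPKM + 1) was taken, genes with RPKM of at least 1 in any of the 3 compared libraries were kept, and each null line was subtracted in turn from the ARID1A+/- library. Where both differences had the same sign, the smaller was used to rank. Ratios of counts carry 95% exact binomial (Clopper-Pearson) intervals, and a library at 0 was set to a floor of 3 counts. Named genes were ARID1A, the 20 highest and the 20 lowest by the smaller difference without systematic or antisense names, up to 6 list members past 2-fold, and the 5 genes in each direction furthest between the null lines; a few genes that this selects are left out of the text. Outside it, the subunits ACTL6B, BCL7A and ARID1B, the genes at the limits, HOXA5, HOXA7, HOXA13, HAND2, PHOX2A, DDC, AQP4, COL1A1, TFAP2B, DQ572382 and the chromosome 18 genes were chosen after their values were seen. Not all genes selected are printed. The comparison, its members and the gene lists were chosen with earlier results of these data known. Of 1548 list genes 1524 had an entry. The RefSeq tables are on GRCh38.p14 and gave gene order and promoters only. Scripts ran in Python 3.11.15 with numpy 2.4.6, pandas 2.3.3 and scipy 1.17.1, and R 4.3.3 with edgeR 4.0.16 gave TMM factors for 1 alternative. The comparison was tested on simulated data. Alternatives were pseudocounts of 0.1 and 0.5, no filter, RPKM of at least 5, TMM, quantile normalization and the SMARTer libraries.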

Additional observations from a re-analysis of the deposited data

Results flagged for a closer look

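In 6 of the 10 genes selected as lying furthest between the null lines, the ARID1A+/- library lay at least 2-fold above one null line and at least 2-fold below the other, so that the lines differed in the direction of the comparison; these differences were not tested, with 1 library on each side. The values are differences of log2(RPKM + 1) against line 1 and then line 2. The adrenergic cofactor LMO3 was at 1.14 and -1.33, with an RPKM of 1.47 in the ARID1A+/- library, 0.122 in line 1, 5.23 in line 2 and 1.61 in the control. The other 5 genes were highest in line 1. The myelin protein gene PMP22 was at -2.35 and 1.89, with RPKM values of 34.9, 182, 8.67 and 43.8 in the same order. RGS5, a regulator of G protein signalling found in pericytes, was at -3.10 and 1.72, with 17.5, 158, 4.61 and 34.0. The proneural factor NEUROG2 was at -1.60 and 1.75, the linker histone gene HIST1H1C at -1.23 and 1.43, and the secreted olfactomedin OLFM3 at -1.58 and 1.23. In all 6 the control lay between the null lines, as the ARID1A+/- library did. In the SMARTer libraries NEUROG2 was at 10.2 in line 1 and 9.20 in line 2, so the gap between the lines was seen with the KAPA kit alone. With the SMARTer libraries, each line relative to the control of its own kit, NEUROG2 and HIST1H1C were above both null lines, with smaller differences of 1.36 and 0.06. By that measure the ARID1A+/- library no longer lay between them. The measure depends on the control, which was at 11.2 (KAPA) and 31.9 (SMARTer) for NEUROG2 and 8.61 and 15.8 for HIST1H1C. Without it, the ARID1A+/- RPKM of 9.64 for NEUROG2 lay between the SMARTer null values. That of 18.7 for HIST1H1C lay between 31.9 in line 1 and 7.35 in line 2.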

How the results depend on the processing

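No paired analysis was possible because the comparison has 1 library per group. With a pseudocount of 0.1 the number of genes 2-fold lower than both null lines was 524, against 230, and the number higher 623, against 440, so the higher share of all such genes moved from 65.7% to 54.3%; a smaller pseudocount counts more genes of low RPKM. With an RPKM of at least 5 fewer genes were considered (9787), and 265 were higher, 151 lower and 54 of 59 in the chromosome 18 stretch above both lines. The other such counts over all genes, over the list genes together, over the named genes and over the chromosome 18 stretch stayed within 1.5 times of their values under all 7 alternatives. Dropping the filter could not change them. A gene 2-fold apart from both lines on this scale already had an RPKM of at least 1 in a compared library, and the chromosome 18 genes were fixed. TMM scaling gave 489 and 200, quantile normalization 455 and 215, and the SMARTer libraries 596 and 309. Of 272 values of the 39 named genes under these alternatives, 0 changed sign, 0 came under 2-fold and 123 moved beyond their counting interval. These genes are the extremes of the same ranking, with CHRFAM7A the nearest at -2.36, so staying past 2-fold was largely built in. Alternatives that change only the filter leave the value of each gene as it was. Without replicates, the spread between cultures of a line is not measured, and ratios on fewer than 10 counts have wide intervals.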
